A study of Mus musculus with 8 samples.

Results

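The 35 genes described here belong to the cell division cycle. They were taken by symbol from a table of FPKM values (fragments scaled by transcript length and library size) of mouse jejunal crypts, where all 35 were found among 23951 symbols. All 35 passed the filter on low values, as did 12084 genes in all. They divide by phase into 15 replication genes, which act when cells license and copy DNA, and 20 mitotic genes, which act from late S phase to cell division. No threshold on a value took part in the choice. The crypts came from mice that all carried BRAF-V600E f/+, a conditional activating allele of the MAPK kinase gene Braf, together with Villin-CreER(T2), a recombinase driven by a promoter of the intestinal epithelium and switched on by tamoxifen. The group BRAF (3 libraries) had no further floxed gene, SMAD4KO_Braf (3 libraries) was also Smad4 f/f, and CDX2KO_Braf (2 libraries) was also Cdx2 f/f. Tamoxifen was given on 4 days in a row in every group, and crypts were collected 1 day after the last injection. The ages of the mice are not given in the sources used here, nor whether each library is a separate animal, so the p-values speak only of the spread between libraries. Villin-CreER(T2) acts across the villus and crypt epithelium and leaves other cell types of the preparation unrecombined.

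Crypts of the small intestine are among the most rapidly dividing tissues of the adult body, and their dividing cells are the stem cells at the base and the transit-amplifying progenitors above them. Entry into S phase is driven by E2F factors, which switch on genes for the MCM helicase, its loading factors and nucleotide synthesis once cyclin-dependent kinases have inactivated the pocket proteins. Mitotic genes are switched on later, by complexes that recruit B-MYB and FOXM1 to a promoter element named CHR, often beside boxes bound by the factor NF-Y. Whole-tissue RNA cannot tell a larger share of dividing cells from more of these transcripts per dividing cell.

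The promoters of these genes are shown first because they can be read apart from any expression value. RefSeq windows on GRCm38.p6, from 250 bases before to 50 after a start site, were matched by symbol and found for 13 replication and 16 mitotic genes. Windows were not matched for Mcm4, Gmnn, Ccna2, Aurkb, Tpx2 and Foxm1. Both strands were searched for the CHR letters TTTGAA and for the NF-Y box CCAAT. For E2F the search used TTGGCGC and its variants spelled TTCCCGC, as well as variants spelled TTGCCGC and those spelled TTCGCGC. E2F matches can overlap each other, and they can share bases with an NF-Y box. Shares are given per window, since Mcm7 and Uhrf1 have 2 each. CHR was matched in 11 of the 16 mitotic windows (68.8%) and in 1 of the 15 replication windows (6.67%), that of Mcm2, against 17.9% of all 32851 windows. E2F was matched in 11 of the 15 replication windows (73.3%), which belong to 9 genes, and in 3 of the 16 mitotic windows (18.8%), those of Mki67, Ccnb1 and Cdk1, against 9.57% of all windows. The NF-Y box was matched in both phases, in 14 of 16 mitotic windows (87.5%) and 11 of 15 replication windows (73.3%), against 37.4% of all windows. These matches describe letters in a window and show no binding. A further list of 47 replication genes had E2F matches in 55.6% of its 45 windows and CHR matches in 20%, and a further list of 60 mitotic genes had E2F matches in 24.5% of its 49 windows and CHR matches in 69.4%.

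The following 6 windows are printed 5′ to 3′ on the strand of the gene, with every match in capitals. Cdt1, Cdc6 and Mcm6 are the replication genes that the comparisons below return to, and Plk1, Cdk1 and Top2a do the same for mitosis. On the forward strand lie chr8:122567765-122568064 for Cdt1, chr11:98907901-98908200 for Cdc6 and chr7:122159185-122159484 for Plk1. On the reverse strand lie chr1:128359656-128359955 for Mcm6, chr10:69352863-69353162 for Cdk1 and chr11:99024140-99024439 for Top2a.
Cdt1: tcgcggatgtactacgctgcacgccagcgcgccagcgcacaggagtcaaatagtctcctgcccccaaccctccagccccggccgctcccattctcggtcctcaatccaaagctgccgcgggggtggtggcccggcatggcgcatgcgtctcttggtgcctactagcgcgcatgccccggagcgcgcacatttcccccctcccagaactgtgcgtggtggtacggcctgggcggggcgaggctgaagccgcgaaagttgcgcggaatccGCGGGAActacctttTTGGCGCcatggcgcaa
Cdc6: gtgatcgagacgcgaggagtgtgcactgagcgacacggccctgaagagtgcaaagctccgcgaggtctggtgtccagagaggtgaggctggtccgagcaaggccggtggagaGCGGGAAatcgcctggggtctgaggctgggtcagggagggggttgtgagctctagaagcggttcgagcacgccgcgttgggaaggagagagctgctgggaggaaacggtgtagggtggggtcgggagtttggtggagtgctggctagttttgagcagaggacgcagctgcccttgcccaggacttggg
Mcm6: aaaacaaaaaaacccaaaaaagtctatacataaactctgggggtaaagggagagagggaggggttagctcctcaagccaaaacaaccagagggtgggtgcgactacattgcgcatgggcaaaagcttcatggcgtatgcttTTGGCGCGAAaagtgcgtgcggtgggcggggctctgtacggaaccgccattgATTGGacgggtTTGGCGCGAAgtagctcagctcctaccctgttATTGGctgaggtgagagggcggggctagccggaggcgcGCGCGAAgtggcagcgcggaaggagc
Plk1: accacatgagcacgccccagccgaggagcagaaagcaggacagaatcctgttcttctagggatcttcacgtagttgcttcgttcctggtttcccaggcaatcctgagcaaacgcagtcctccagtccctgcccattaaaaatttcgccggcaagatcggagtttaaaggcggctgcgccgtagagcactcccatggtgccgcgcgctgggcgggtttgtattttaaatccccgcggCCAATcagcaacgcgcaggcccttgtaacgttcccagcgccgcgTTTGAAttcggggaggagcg
Cdk1: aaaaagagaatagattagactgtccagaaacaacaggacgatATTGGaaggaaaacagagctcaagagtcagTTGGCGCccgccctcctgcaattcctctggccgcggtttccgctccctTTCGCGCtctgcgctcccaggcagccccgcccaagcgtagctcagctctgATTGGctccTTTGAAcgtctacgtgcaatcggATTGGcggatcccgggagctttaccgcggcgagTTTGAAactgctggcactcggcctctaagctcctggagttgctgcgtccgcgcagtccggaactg
Top2a: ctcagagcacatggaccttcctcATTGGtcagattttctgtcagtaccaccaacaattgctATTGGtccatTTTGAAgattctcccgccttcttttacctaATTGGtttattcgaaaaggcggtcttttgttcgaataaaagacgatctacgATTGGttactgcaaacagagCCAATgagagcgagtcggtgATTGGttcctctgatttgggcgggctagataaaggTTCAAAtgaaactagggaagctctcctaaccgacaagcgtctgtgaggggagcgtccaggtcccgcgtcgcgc
Cdt1 and Cdc6 carry 2 and 1 E2F matches and no other motif of the search, while Mcm6 carries 5 E2F matches and 2 NF-Y boxes. Plk1 has 1 CHR match, whose first base is at position 30 from the start site, and 1 NF-Y box at -14. Top2a has 2 CHR matches and 6 NF-Y boxes and no E2F match. Cdk1 holds all 3 kinds, with 2 CHR matches, 3 NF-Y boxes and 2 E2F matches, and its CHR matches begin at -71 and -15.

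**Figure D1:**
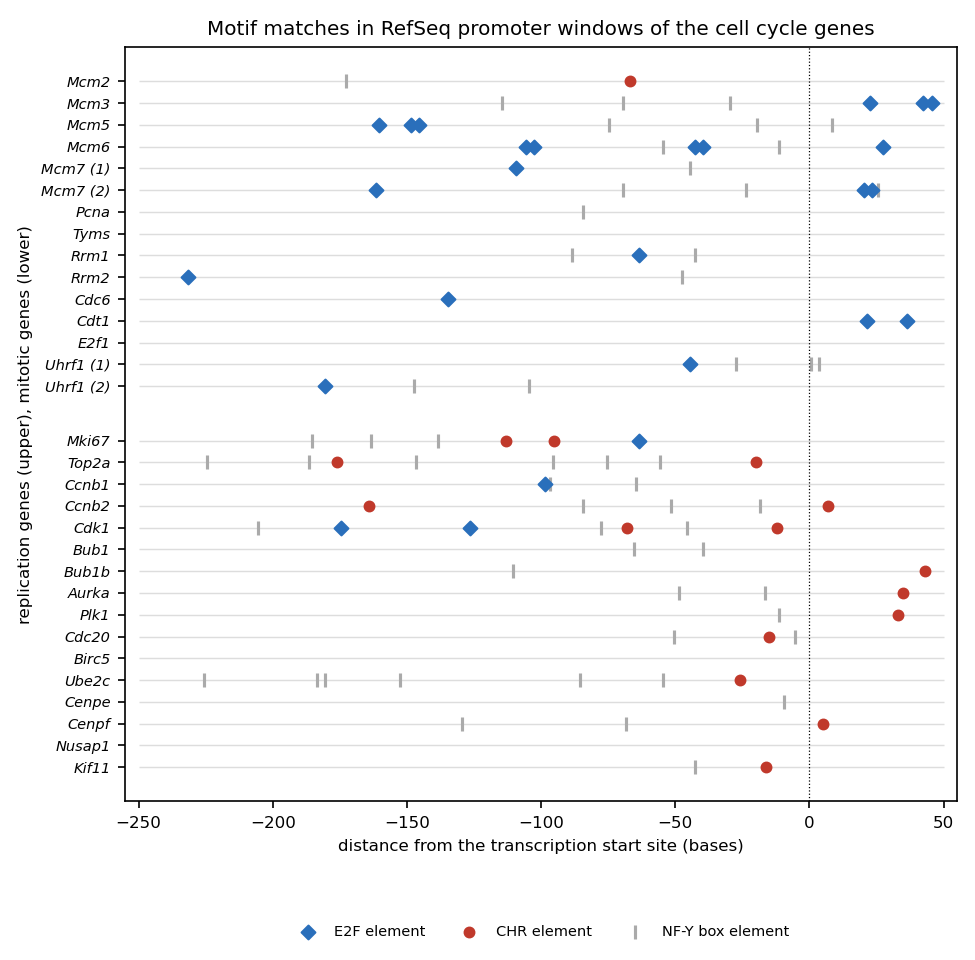
Matches to the E2F, CHR and NF-Y elements along the promoter windows of 13 replication genes (upper) and 16 mitotic genes (lower), with the distance from the transcription start site in bases on the horizontal axis, each match drawn at its middle and numbered lines for genes with more than 1 window. E2F matches (diamonds) lie mostly in the upper block and CHR matches (circles) in the lower block, where 11 of 16 genes have at least 1.

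The files hold FPKM and no counts, so the absolute depth is unknown and no counting interval can be given. The size of the steps that separate low values gives a relative depth of 0.703 to 1.45, with BRAF library 0 set to 1. Libraries carry the column's number, which does not say which titled sample it is. Smad4 was at 10.7, 8.38 and 7.66 FPKM in SMAD4KO_Braf and at 42.5, 47.0 and 42.4 in BRAF. Cdx2 went against its label, at 155 and 121 FPKM in the libraries labelled CDX2KO_Braf and 64.2, 82.6 and 80.1 in BRAF. A whole-gene value does not check the floxed part of Cdx2, so what is said of the direction of a difference holds for these 2 libraries as labelled. All 9 epithelial markers, Epcam, Cdh1 and Vil1 among them, were above an FPKM of 1 in every library. Mature enterocyte markers (12 genes, none at 0) summed to 13608 to 29782 FPKM in BRAF, 6777 to 20481 in SMAD4KO_Braf and 3679 to 8593 in the libraries labelled CDX2KO_Braf. T cell markers (12 genes, none at 0) summed to 37.5 to 1076, 56.1 to 515 and 16.7 to 74.8. All 5 endothelial markers stayed below an FPKM of 1, with 1 at 0 everywhere. Summed FPKM ranged over the libraries from 266 to 692 for 10 stem cell markers, 5211 to 26338 for 8 Paneth cell markers (1 at 0 everywhere), 1.29 to 15.05 for 6 B cell markers, 16.4 to 58.0 for 7 myeloid markers and 2.30 to 109 for 9 mesenchymal markers. By Y-linked genes, library 0 of BRAF and library 0 of SMAD4KO_Braf came from males, and 6 libraries from females.

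Among the replication genes, whose level per transcript length FPKM makes comparable, Mcm6, Pcna, Mcm3 and Rrm1 stood highest, and E2f1 and Cdc6 lowest. Over the 8 libraries, the mean FPKM was 48.6 for Mcm6, 46.7 for Pcna, which encodes the sliding clamp of DNA polymerases, 38.9 for Rrm1 and 33.7 for Rrm2. It was 5.02 for E2f1, the activating E2F factor, and 4.08 for Cdc6, which loads the helicase onto origins. The 6 subunits of the MCM helicase assemble in equal number. The highest subunit, Mcm6 in all 8 libraries, exceeded the lowest by 1.55 to 1.98 times in BRAF and by 1.70 to 1.78 times in SMAD4KO_Braf. In the libraries labelled CDX2KO_Braf it did so by 2.73 and 2.51 times.

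Mitotic genes covered a similar range. The mean FPKM was 69.1 for Ube2c, the ubiquitin-conjugating enzyme of the anaphase-promoting complex, 64.9 for Top2a, which untangles sister chromatids, and 55.3 for Ccna2, the cyclin of S phase and G2. It was 4.73 for Cenpf and 7.20 for Cenpe, which encode large kinetochore proteins. Of the B cyclins that activate Cdk1, Ccnb2 had a mean of 33.5 and Ccnb1 of 7.92, and Ccnb2 exceeded Ccnb1 by 3.50 to 5.36 times in each library. By mean FPKM, the 35 genes lay between the 22.4th percentile (Cdc6) and the 88.8th percentile (Ube2c) of the genes tested. The ratio of the highest to the lowest of the 8 libraries was smallest for Cdc20, at 1.29, and largest for E2f1, at 2.78.

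**Figure D2:**
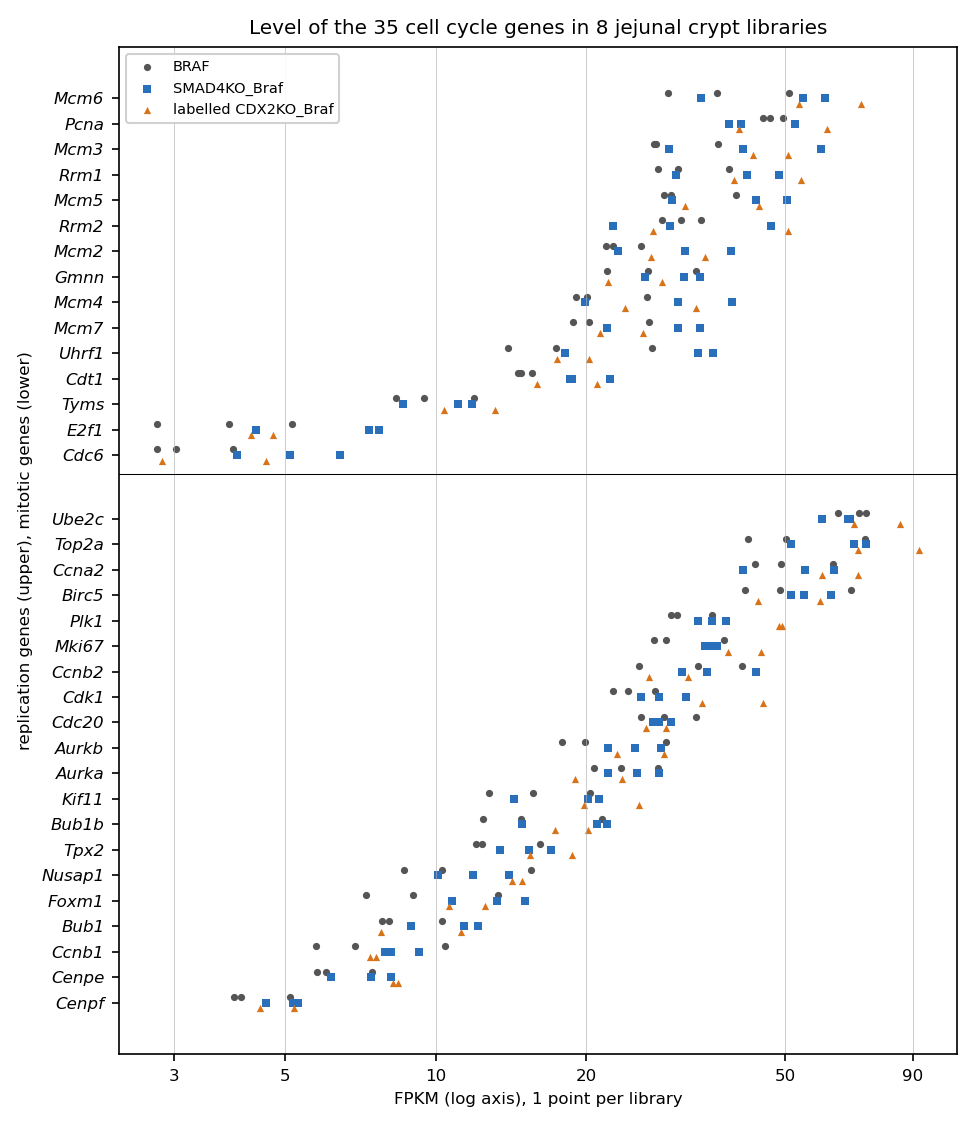
FPKM on a log axis of the 15 replication genes (upper block) and 20 mitotic genes (lower block), ordered by mean level, with 1 point per library and the groups drawn apart within each line. Levels run from Cdc6, at 2.77 to 6.43, to Top2a, which reaches 92.5 in a library labelled CDX2KO_Braf.

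The cell cycle genes varied together between libraries of the same group. In BRAF, library 1 was the highest of the 3 libraries for 35 of 35 genes. The share over all genes was not computed, here or for the highest and lowest libraries below. Library 1 also had a summed FPKM of 463556 over all genes, against 585119 and 538620 in libraries 0 and 2. In it 11570 genes reached an FPKM of 1, against 11212 and 11181. Library 0, the only male library of that group, was the lowest for 10 of 15 replication genes and 18 of 20 mitotic genes. For each gene, log2(FPKM + 1) was set against its BRAF mean, and the median over the 15 replication genes was -0.17, 0.27 and -0.069 in BRAF libraries 0 to 2, while the median over the 20 mitotic genes was -0.21, 0.28 and -0.079. Both phases thus gave nearly the same value within each BRAF library. Top2a shows the size of this spread, at 42.1, 72.1 and 50.2 FPKM in BRAF libraries 0 to 2, as does Uhrf1, which brings the maintenance DNA methyltransferase to replicated DNA, at 14.0, 27.0 and 17.4. Several marker lists were highest in BRAF library 1 too, by their median against the BRAF mean. The stem cell list was at 0.29 there, against -0.23 and -0.12 in libraries 0 and 2, the T cell list at 2.02 against -1.85 and -0.24 and the mesenchymal list at 1.78 against -1.72 and -0.097. The myeloid list was at 0.92 against -0.50 and -0.31 and the B cell list at 0.74 against -0.55 and -0.19. Lowest in that library were the lists of mature enterocytes, at -0.53 against 0.57 and -0.16, Paneth cells, at -0.53 against -0.079 and 0.44, and epithelium, at -0.18 against 0.33 and -0.064. The part of these cell types in the level of the cell cycle genes was not tested.

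SMAD4KO_Braf libraries differed more for replication genes than for mitotic genes. The replication median was -0.048, 0.63 and 0.43 in libraries 0 to 2, and the mitotic median was 0.00057, 0.20 and 0.25. Library 0 was the lowest of its group for 15 of 15 replication genes and 17 of 20 mitotic genes, and it lay close to the BRAF mean in both phases. It was also the only male library of its group, so sex cannot be told apart from the single library here. Library 1 had a replication median 0.43 above its mitotic median, the largest gap of the 8 libraries. Unlike the gaps in BRAF, it holds the difference from the BRAF mean as well as the spread within SMAD4KO_Braf. The median coefficient of variation within the group was 25.2% for replication genes and 11.9% for mitotic genes, against 16.4% for all genes tested. In BRAF these were 18.7% and 18.2%, against 14.7%. Of the libraries labelled CDX2KO_Braf, library 0 was higher than library 1 for 15 of 15 replication genes and 18 of 20 mitotic genes. Their replication medians were 0.44 and 0.074, and their mitotic medians 0.35 and 0.16. For the stem cell list the SMAD4KO_Braf values were 0.084, 0.56 and 0.61, those of the labelled libraries 0.41 and 0.019, also lowest in library 0 of SMAD4KO_Braf and higher in labelled library 0. In labelled libraries 0 and 1 the T cell list was at -2.35 and -1.27, the mesenchymal list at -2.11 and -0.94. The myeloid list, at -1.32 and -0.35, and the B cell list, at -1.03 and -0.71, were also lower in labelled library 0. Higher there were the enterocyte list, at -1.83 and -2.60, and the Paneth cell list, at -0.69 and -1.29. In SMAD4KO_Braf, library 0 was lowest for the T cell, mesenchymal, myeloid and B cell lists and highest for the enterocyte list. The part of these cell types in the level of the cell cycle genes was not tested.

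**Figure D3:**
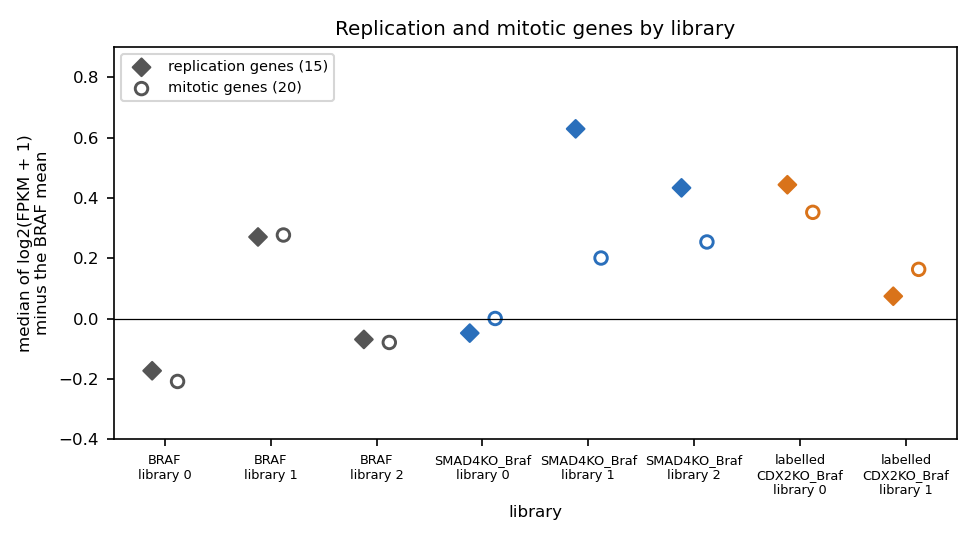
Median of log2(FPKM + 1) minus the BRAF mean over 15 replication genes (filled diamonds) and 20 mitotic genes (open circles) for each library on the horizontal axis, coloured by group. Both phases lie close together within each BRAF library, and they are furthest apart in SMAD4KO_Braf library 1, at 0.63 and 0.20. Values of the BRAF libraries hold only the spread within that group, and the others also hold the difference from BRAF.

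The first comparison, SMAD4KO_Braf against BRAF, concerns loss of Smad4, a protein on which the BMP and TGF-beta pathways converge, in crypts with the activated kinase. No cell cycle gene passed the threshold, an adjusted p of 0.05 in limma over 12084 genes. All values of the comparison below are differences of log2(FPKM + 1) with their standard error. Of all genes tested 0.0745% passed, 0.0248% upward and 0.0497% downward. Higher values at an unadjusted p under 0.05 were found for 3 of the 35 genes, Cdc6, Cdt1 and E2f1, against 6.07% of all genes, and lower values for none, against 9.05%. A positive difference was seen for 32 of 35 genes, with a median of 0.37 for replication genes and 0.16 for mitotic genes, against -0.013 for all genes, of which 48.2% were positive. Without SMAD4KO_Braf library 1 the replication median was 0.18, and the mitotic median was 0.068 without BRAF library 0 and 0.30 without BRAF library 1. Over the 6 female libraries the medians were 0.44 and 0.13. The enterocyte markers had a median of -1.32 in the same comparison, with 8 of 12 lower at an unadjusted p under 0.05 and none passing. Stem cell markers had a median of 0.40, with 9 of 10 positive and 3 higher at an unadjusted p under 0.05, and Paneth cell markers of 0.83, with 6 of 7 positive. The part of these cell types in the values of the cell cycle genes was not tested.

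E2f1, Uhrf1 and the licensing factor Cdc6 had the largest differences among the replication genes. Cdc6 was at 4.01, 6.43 and 5.12 FPKM in SMAD4KO_Braf libraries 0 to 2 and 3.03, 3.92 and 2.77 in BRAF. Its groups did not overlap, by a narrow margin, and the difference was 0.54 ± 0.21 (limma, adjusted p = 0.310). Cdt1, which loads MCM rings together with Cdc6, was at 18.6, 18.7 and 22.3 against 14.8, 15.6 and 14.6. All 3 SMAD4KO_Braf libraries lay above all 3 of BRAF, with a difference of 0.38 ± 0.13 (adjusted p = 0.279, range over alternatives 0.0474 to 0.625). It passed with library weights (0.0474), as did E2f1 (0.0438), when 8.85% of all genes did. E2f1 was at 4.36, 7.35 and 7.69 against 2.77, 5.16 and 3.86, so that library 0 of SMAD4KO_Braf lay among the BRAF values (0.60 ± 0.24, adjusted p = 0.318, range 0.0438 to 0.671). Gmnn, which encodes the inhibitor of Cdt1, was at 26.2, 33.8 and 31.4 against 21.9, 33.1 and 26.5 with overlap (0.17 ± 0.18). Cdc6 and Cdt1 were the only genes of the 35 whose groups did not overlap, which is 2 of 35 against 8.99% of all genes that were higher in this way. None of the 35 was lower without overlap, against 10.4%.

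The MCM genes differed little among themselves. All 6 were positive, between 0.31 for Mcm5 and 0.44 for Mcm3, and all 6 overlapped between the groups (adjusted p 0.398 to 0.564). Mcm2 was at 23.1, 38.9 and 31.5 FPKM in SMAD4KO_Braf and 21.9, 25.7 and 22.6 in BRAF. In 2 of the 3 SMAD4KO_Braf libraries it exceeded every BRAF library, and library 0 lay within their range. Of the genes of nucleotide supply, Rrm1, the large subunit of ribonucleotide reductase, was at 0.29 ± 0.21, the small subunit Rrm2 at 0.024 ± 0.30 and the thymidylate synthase gene Tyms at 0.079 ± 0.17. Pcna was at -0.11 ± 0.18, the lowest of the replication genes, and at 0.030 after quantile normalization. Values of Pcna overlapped, at 38.6, 52.2 and 40.8 against 46.6, 49.5 and 45.1.

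Mitotic genes were closer to 0. Their differences ran from -0.095 for Ube2c to 0.40 for Foxm1, the forkhead factor of mitotic genes, and 18 of 20 were positive. None had an unadjusted p under 0.05. The proliferation marker Mki67, a coat protein of mitotic chromosomes, was at 35.7, 34.6 and 36.5 FPKM in SMAD4KO_Braf, within the range of the BRAF values, 27.3, 37.6 and 28.8 (0.20 ± 0.14, adjusted p = 0.501). Plk1, a kinase of mitotic entry and spindle assembly, was at 35.7, 33.4 and 38.0 against 29.6, 35.6 and 30.3 (0.16 ± 0.10). Cdk1, the kinase that drives mitosis, was at 0.19 ± 0.14. Cdc20 and Ube2c, which act with the anaphase-promoting complex, were the 2 genes below 0, at -0.036 ± 0.11 and -0.095 ± 0.12. After quantile normalization Ube2c was at 0.089 and Cdc20 at 0.06.

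**Figure D4:**
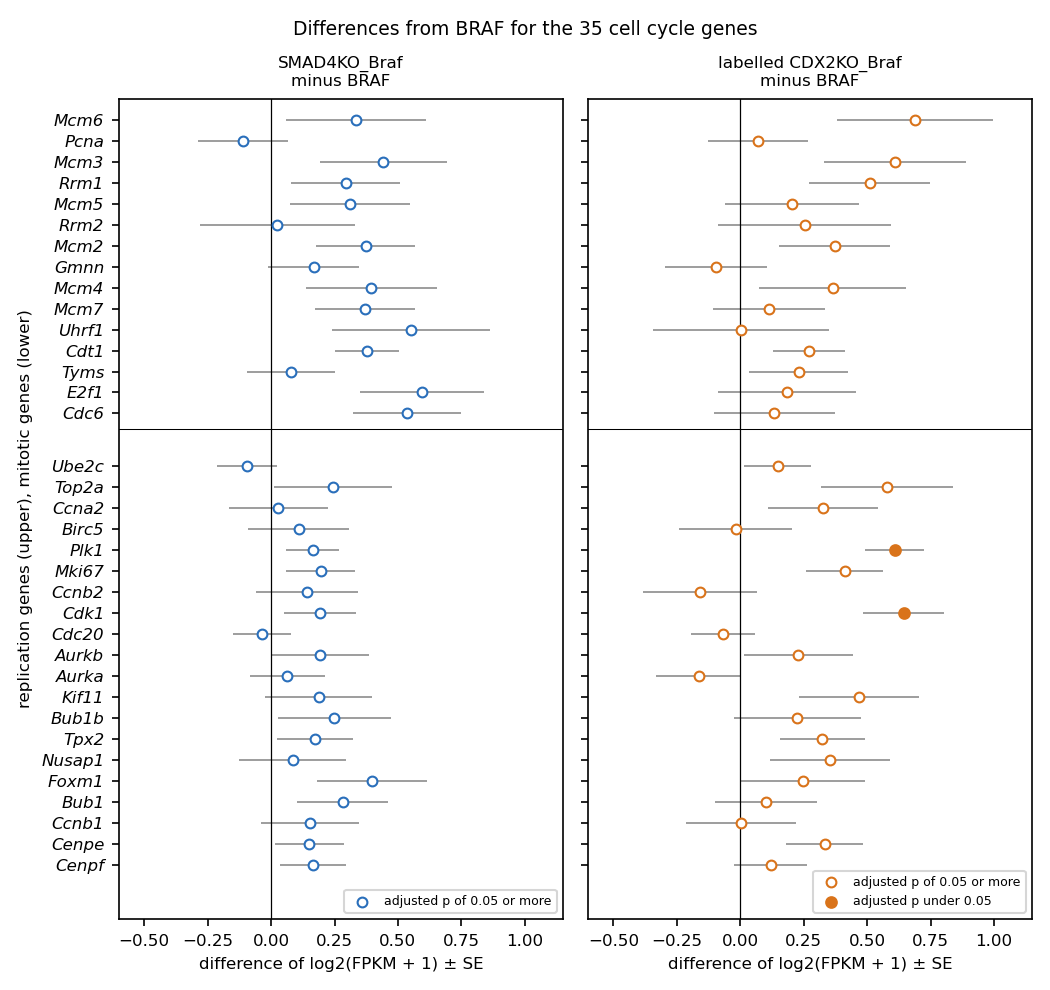
Difference from BRAF in log2(FPKM + 1) with its standard error for SMAD4KO_Braf (left) and the libraries labelled CDX2KO_Braf (right), for replication genes (upper block) and mitotic genes (lower block). Filled points, for Plk1 and Cdk1 on the right, have an adjusted p under 0.05 in limma.

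The second comparison sets the libraries labelled CDX2KO_Braf against BRAF and concerns Cdx2, a homeobox factor of intestinal identity. The comparison shares its control libraries with the one above. Among the mitotic genes Plk1 and Cdk1 rose, and no replication gene passed. That is 2 of 35 genes, against 6.89% of all genes that passed upward and 14.1% in either direction, so the share is near the background. No cell cycle gene passed downward, against 7.21%. At an unadjusted p under 0.05 there were 3 higher, Plk1, Cdk1 and Mki67, against 14.6%, and none lower, against 14.2%. For 9 of 35 genes both labelled libraries exceeded every BRAF library, and the same held for 25.7% of all genes, while 22.7% were lower in this way. A positive difference was seen for 30 of 35 genes, against 52.5% of all genes. The median difference was 0.23 for replication genes and 0.24 for mitotic genes, against 0.023 for all genes. Without BRAF library 1 these were 0.35 and 0.43, without BRAF library 0 they were 0.12 and 0.094, and the replication median was 0.44 without labelled library 1 and 0.074 without labelled library 0. With sex in the model the medians were 0.11 and 0.11, and over the female libraries alone 0.12 and 0.094. The median was -2.27 for mature enterocyte markers, of which 7 of 12 passed downward, -1.54 for Paneth cell markers, of which 2 of 7 did, and 0.33 for stem cell markers, of which 1 of 10 passed upward. It was -1.88 for T cell, -1.52 for mesenchymal, -0.97 for myeloid and -0.87 for B cell markers. The stem cell list was split, with 6 of 10 markers positive and values from -1.10 to 0.95. At an unadjusted p under 0.05, 3 stem cell markers were higher and 2 lower. The part of these cell types in the values of the cell cycle genes was not tested.

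Plk1 was at 49.2 and 48.6 FPKM in the libraries labelled CDX2KO_Braf and at 29.6, 35.6 and 30.3 in BRAF. Both labelled libraries lay above the other 6. The rise was 0.61 ± 0.12 (limma, adjusted p = 0.0159, range over alternatives 0.00390 to 0.101). It did not pass without BRAF library 2 (0.0570), without labelled library 0 (0.0980) or library 1 (0.101), or over female libraries alone (0.0551). In each of these its difference was between 0.56 and 0.62. Cdk1 was at 45.1 and 34.0 against 22.6, 27.4 and 24.2. Both labelled libraries were again above all others, with library 0 further away than library 1. Its rise was 0.64 ± 0.16 (adjusted p = 0.0378, range 0.0125 to 0.231). That call ended without a filter (0.0565), after quantile normalization (0.0768), with only both groups compared (0.0658), with sex as a term (0.0507) and over female libraries alone (0.0950). It also ended without BRAF library 0 (0.0950) or 2 (0.09996), SMAD4KO_Braf library 2 (0.0633), or labelled library 0 (0.231) or 1 (0.0616).

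Partners of these kinases, and other genes of the same steps, did not pass. Ccnb1 was at 7.60 and 7.40 FPKM in the labelled libraries and 5.75, 10.4 and 6.90 in BRAF, a difference of 0.0035 ± 0.22, and Ccnb2 was at -0.16 ± 0.22. Aurka, the spindle-pole kinase that activates PLK1, was at 23.6 and 19.0 against 20.7, 27.8 and 23.5 (-0.16 ± 0.17), and the difference for Aurkb, the kinase of the chromosomal passenger complex, was 0.23 ± 0.22. Birc5, which encodes the passenger protein survivin, was at -0.018 ± 0.22, and the spindle checkpoint genes Bub1 and Bub1b were at 0.10 ± 0.20 and 0.22 ± 0.25. Their adjusted p ran from 0.518 to 0.994 and their standard errors from 0.17 to 0.25, so that differences of that size were not detectable.

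Other mitotic genes were higher in the labelled libraries without passing. Mki67 was at 44.8 and 38.5 FPKM there and 27.3, 37.6 and 28.8 in BRAF, without overlap (0.41 ± 0.15, adjusted p = 0.124, range 0.0284 to 0.478). It passed with library weights (0.0284), when 21.5% of all genes did, and without BRAF library 1 (0.0377), the highest BRAF library. Top2a was at 92.5 and 69.8 against 42.1, 72.1 and 50.2, so that labelled library 1 lay below BRAF library 1 (0.58 ± 0.26, adjusted p = 0.193). The motor gene Kif11, which separates the spindle poles, was at 0.47 ± 0.24. Cenpe, a motor of the kinetochore, was at 8.42 and 8.20 against 5.77, 7.46 and 6.04, also without overlap (0.33 ± 0.15, adjusted p = 0.198). Of the 20 mitotic genes 4 were higher without overlap, against 25.7% of all genes. The spindle genes Nusap1 and Tpx2 were at 0.35 ± 0.24 and 0.32 ± 0.17, and Cenpf at 0.12 ± 0.14.

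Among replication genes, differences in the labelled libraries ran from -0.094 for Gmnn to 0.69 for Mcm6. Mcm6 was at 71.0 and 53.4 FPKM against 29.1, 50.9 and 36.4 in BRAF, above it in both libraries (0.69 ± 0.31, adjusted p = 0.192). Mcm3 was at 0.61 ± 0.28 and Rrm1 at 0.51 ± 0.24, and they too did not overlap with BRAF. For Rrm1 the margin was narrow, at 39.4 in labelled library 1 against 38.7 in BRAF library 1. Of the 15 replication genes 5 were higher without overlap, against 25.7% of all genes. Mcm7 was at 0.11 ± 0.22 and Mcm5 at 0.21 ± 0.26, with overlap. Cdc6, at 4.58 and 2.83, Uhrf1, at 20.3 and 17.4, and E2f1, at 4.73 and 4.26, had differences of 0.13 ± 0.24, 0.0030 ± 0.35 and 0.18 ± 0.27. Their differences in the Smad4 comparison, which uses the same BRAF libraries, were 0.54, 0.55 and 0.60, the largest of the 35 genes there.

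**Figure D5:**
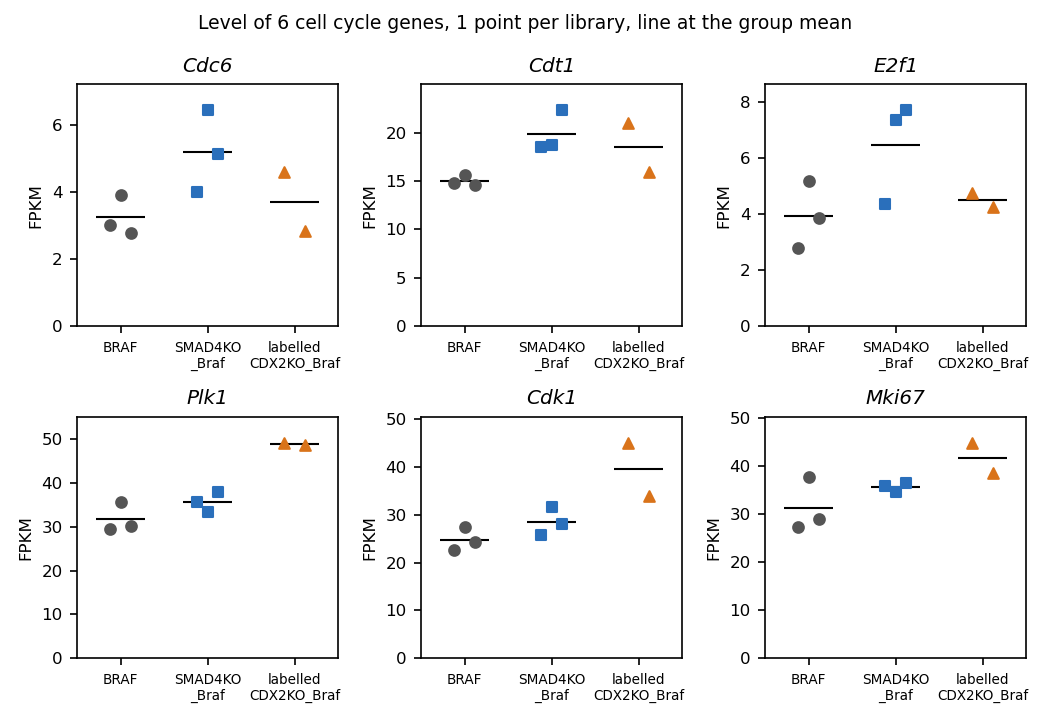
FPKM of 3 replication genes (upper row) and 3 mitotic genes (lower row), as points for single libraries, with horizontal lines for group means. For Cdc6 and Cdt1 the lowest SMAD4KO_Braf value lies above the highest BRAF value, and for Plk1 the labelled libraries, at 49.2 and 48.6, lie above every other value.

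Set directly against SMAD4KO_Braf, the labelled libraries gave no call among the 35 genes in limma, where 11.6% of all genes passed in either direction, 6.6% upward and 5.01% downward. At an unadjusted p under 0.05, Plk1 and Cdk1 were higher, against 15.7% of all genes, and none was lower, against 13.3%. Groups did not overlap for 6 genes that were higher (Mki67, Cdk1, Plk1, Ube2c, Cenpe and Nusap1), against 25.1%, and for 1 that was lower, Ccnb1, against 22.2%. A positive difference was seen for 17 of 35 genes, against 52.4%. The median difference was -0.030 for replication genes and 0.093 for mitotic genes, against 0.024 for all genes. Over the alternatives and left-out libraries the replication median ran from -0.26 to 0.17, on both sides of 0, and the mitotic median from 0.012 to 0.19. The replication median was above 0 without SMAD4KO_Braf library 1 (0.17), SMAD4KO_Braf library 2 (0.0093) or labelled library 1 (0.17). Over the female libraries alone they were -0.19 and 0.034. Plk1 was at 0.45 ± 0.12 (adjusted p = 0.0514, range over alternatives 0.0311 to 0.263). It passed after median-ratio rescaling (0.0482), with library weights (0.0311) and without BRAF library 1 (0.0410). With library weights 20.2% of all genes passed. Cdk1 was at 0.45 ± 0.16 (adjusted p = 0.110). Uhrf1, E2f1 and Cdc6 had the lowest values, at -0.55 ± 0.35, -0.41 ± 0.27 and -0.40 ± 0.24 (adjusted p 0.345, 0.367 and 0.311). With sex as a term E2f1 (0.0410, range 0.0410 to 0.620) and Uhrf1 (0.0476, range 0.0476 to 0.609) passed downward, when 15.5% of all genes passed in either direction. The licensing factors Cdc6 and Cdt1 (-0.11 ± 0.14) were negative, and so was Gmnn (-0.26 ± 0.20), which encodes the inhibitor of Cdt1. All 4 genes of nucleotide supply and the clamp were positive, between 0.15 for Tyms and 0.23 for Rrm2. For these 4 genes and for Cdt1 each difference was smaller than its standard error.

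Further genes of the cycle, from 4 lists, gave the surroundings of the 35. In SMAD4KO_Braf against BRAF, 47 of 47 other replication genes and 58 of 60 other mitotic genes had positive differences, with medians of 0.33 and 0.21, and none passed in limma. Unadjusted p-values under 0.05 were found for 6 of 47 and 1 of 60 of them, all higher, against 6.07% of all genes that were higher at that level. Pold1, the catalytic subunit of DNA polymerase delta, was at 13.5, 14.1 and 17.4 FPKM against 9.72, 12.6 and 10.1 (0.44 ± 0.14, adjusted p = 0.263), and Wdhd1, a replisome protein, was at 0.60 ± 0.19 (0.269). In both genes the groups did not overlap, though Wdhd1 barely separated, at 10.65 in SMAD4KO_Braf library 0 and 10.62 FPKM in BRAF library 1. Higher without overlap were 4 of 47 other replication and 3 of 60 other mitotic genes, against 8.99% of all genes. With library weights Pold1 and Wdhd1 passed (0.0384 each, ranges 0.0384 to 0.624 and 0.0384 to 0.625), when 1069 genes did so in all. In the labelled libraries against BRAF the medians of both lists were 0.19 and 0.22. No other replication gene passed, while of the other mitotic genes H2afx, a histone variant that marks DNA breaks, and Anln, the cytokinesis protein anillin, rose. That is 2 of 60 genes, against 6.89% of all genes that passed upward. H2afx was at 57.9 and 51.5 FPKM against 28.3, 31.6 and 37.1 (0.75 ± 0.16, adjusted p = 0.0260, range 0.0234 to 0.159), and Anln at 15.3 and 13.5 against 8.79, 10.03 and 8.36 (0.61 ± 0.15, adjusted p = 0.0373, range 0.00785 to 0.211). Both calls ended without labelled library 0 (0.159 and 0.211), without labelled library 1 (0.104 and 0.119), without BRAF library 0 (0.0655 and 0.0897) and over female libraries alone (0.0791 and 0.0655). The call of H2afx also ended without BRAF library 1 (0.0626), and that of Anln without a filter (0.0606), without BRAF library 2 (0.105) or without SMAD4KO_Braf library 2 (0.0628).

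Upstream of both phases, the G1 list of 28 cyclins, kinases, pocket proteins and E2F factors had 1 call in each comparison of the labelled libraries, against 6.89% (BRAF) and 6.6% (SMAD4KO_Braf) of all genes that passed upward. Ccnd3, a D-type cyclin that activates Cdk4 and Cdk6, was at 33.4 and 30.1 FPKM in the labelled libraries, 19.3, 14.2 and 19.97 in BRAF and 15.2, 15.6 and 14.5 in SMAD4KO_Braf. Both labelled libraries were above the other 6. It rose by 0.81 ± 0.15 against BRAF (adjusted p = 0.0154, range 0.00858 to 0.108) and by 1.02 ± 0.15 against SMAD4KO_Braf (0.00859, range 0.00334 to 0.0707), and both calls ended without labelled library 0 (0.108 and 0.0707) or library 1 (0.0820 and 0.0615). Cdk2, the partner of E and A cyclins, was at 20.6, 27.0 and 28.6 in SMAD4KO_Braf, 24.3 and 25.4 in the labelled libraries and 14.1, 20.2 and 14.6 in BRAF. All 5 libraries with a second floxed gene lay above all 3 of BRAF, by a narrow margin (20.6 against 20.2). Of all genes, 8.99% were higher than BRAF without overlap in SMAD4KO_Braf and 25.7% in the labelled libraries. The share for both at once was not computed, and both use the same BRAF libraries. Its differences from BRAF were 0.61 ± 0.17 (adjusted p = 0.235, range 0.0340 to 0.581) and 0.60 ± 0.19 (0.0890, range 0.0155 to 0.276). With library weights both passed (0.0340 and 0.0155), when 8.85% and 21.5% of all genes did. The second also passed without BRAF library 1 (0.0429). Rb1, the pocket protein that restrains E2F factors, was at -0.51 ± 0.20 and -0.71 ± 0.23 (0.311 and 0.0819). The list of kinase inhibitors holds 8 genes whose symbols begin with Cdkn, and what each product does was not examined. Of these 6 were tested, and none passed in the main analysis of any comparison. At an unadjusted p under 0.05 there was 1, Cdkn3, lower in the labelled libraries than in BRAF (-0.55 ± 0.22, adjusted p = 0.149). In that comparison 14.2% of all genes were lower at that level. Cdkn3 passed there with sex as a term (0.0335), when 14.9% of all genes did. With library weights Cdkn2b passed downward there (0.0441), when 21.5% of all genes passed in either direction. Cdkn1a, which encodes p21, was at 100.3, 106 and 51.5 FPKM in SMAD4KO_Braf and 270.5, 86.8 and 203 in BRAF (-1.03 ± 0.46, adjusted p = 0.345, 0.0488 with library weights, range 0.0488 to 0.689).

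Against SMAD4KO_Braf, 6.6% of all genes passed upward in the labelled libraries and 5.01% downward. In the lists of 47 other replication genes and 60 other mitotic genes the only call was H2afx. Its difference was 0.66 ± 0.16 (adjusted p = 0.0447, range 0.0439 to 0.237), and the call ended in 13 of 19 alternatives, among them the loss of any 1 library but BRAF library 0 (0.0545 to 0.237). Cdc7, the kinase that fires replication origins, was at -0.65 ± 0.20 (0.0750), with 9.16 ± 0.946 FPKM (SD, n = 3) in SMAD4KO_Braf and 5.50 ± 0.995 (n = 2) in the labelled libraries. The list of other replication genes had a median of -0.12, with 33 of 47 genes negative, and that of other mitotic genes 0.0023, with 30 of 60 positive.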

How the data were processed

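Crypts of 8 samples in 3 groups were freed with 3 mM EDTA and a 70 micron filter, and RNA was sequenced from a TruSeq kit as 50 bp reads from 1 end, per the labels' protocols. The authors deposited 1 table of FPKM, fragments scaled by transcript length and library size. TopHat2 2.1.0, Cuffnorm 2.2.1, Cuffdiff 2.2.1 and the build mm9 are named in the submitters' processing notes, without saying which program made the table. Columns were matched to groups by name, and 3 further columns that match no sample were not used.

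On the scale log2(FPKM + 1), made from the deposited FPKM, genes that reached an FPKM of 1 in 2 or more of 8 libraries were fitted, all 3 groups together, with limma 3.58.1 (R 4.3.3) and a mean-variance trend. P-values are two-sided, adjusted by Benjamini-Hochberg over all 12084 genes per comparison, with a threshold of 0.05. The procedure was tested on simulated data, in which genes varied independently and changes of log2 1 or 2 were added. It recovered 56.6% to 65.8% of changes of 1 and 87.0% to 89.0% of changes of 2. Smaller changes, such as those of the 35 genes, and genes that vary together were not simulated. Low genes have their changes understated on this scale. The median standard error of the 35 genes was 0.19 in the Smad4 comparison and 0.22 in the others.

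The members and the gene lists were chosen with earlier results of these data known, so lists are described by counts and medians only. Named are all 35 members, up to 4 genes per further list and comparison with the smallest adjusted p, and the targeted genes. Results were recomputed with other pseudocounts (0.1) and filters (none, or an FPKM of 5), median-ratio and quantile scaling, only the groups compared, no trend, library weights, a replicate block, sex, female libraries only and each library left out. Python 3.11.15, numpy 2.4.6, pandas 2.3.3 and matplotlib 3.10.9 made tables and figures.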

Additional observations from a re-analysis of the deposited data

How the results depend on the processing

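Of the 35 genes, 2 were called with library weights in the Smad4 comparison, when 8.85% of all genes were, against 0 in the main analysis. Against BRAF, the libraries labelled CDX2KO_Braf gave 2 calls in the main analysis and 3 with library weights, when 21.5% of all genes were called. They gave 1 without a filter, after quantile normalization, with only both groups compared or with sex as a term. In those settings 7.4% to 14.9% of all genes were called. Over female libraries alone the labelled libraries gave 0, when 11.4% of all genes were called. Against SMAD4KO_Braf they gave 0 in the main analysis and 1 with median-ratio rescaling, when 1453 of 12082 genes were called. With library weights they gave 1 (20.2% of all genes) and with sex as a term 2 (15.5% of all genes). The mitotic median of the second comparison was 0.43 without BRAF library 1, against 0.24. Leaving out 1 library at a time gave 0 to 0, 0 to 3 and 0 to 1 calls in these 3 comparisons, with replication medians of 0.18 to 0.55, 0.074 to 0.44 and -0.26 to 0.17 and mitotic medians of 0.068 to 0.30, 0.094 to 0.43 and 0.032 to 0.19. Where this left 1 labelled library, that library was assumed to vary like the others. Over all alternatives, no single gene named here reversed while called or beyond its standard error. Of these genes' values, 46 lost and 30 gained a call, and 2827 kept their side of the threshold. Library numbers did not pair the libraries. The correlations of deviations between same-numbered BRAF and SMAD4KO_Braf libraries were 0.241, -0.047 and 0.003, and a replicate block by that number gave 0, 0 and 0 calls, against 0, 2 and 0 without it, with an adjusted p of 0.0575 for Plk1 and 0.110 for Cdk1 in the second. The number of genes called in all ranged over the alternatives from 5 to 1069, from 409 to 2602 and from 234 to 2447, against 9, 1704 and 1402, and the median of all genes stayed within 0.069 of 0. The causes were not tested. Without counts, the precision of a single library is not known.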

Other observations

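Ratios between cell cycle genes of the same library are not changed by 1 scaling factor per library, though quantile normalization can change them. The pairs given here were chosen after their values were seen, and no test was run on them. Mcm6 to Mcm7, 2 subunits of the same helicase ring, stood at 2.73 and 2.51 in the libraries labelled CDX2KO_Braf and between 1.54 and 1.90 in the other 6. Plk1 to Aurka, the kinase and its activator, stood at 2.08 and 2.56 in the labelled libraries and between 1.28 and 1.62 in the others, and Plk1 to Cdc20 stood at 1.71 and 1.85 against 1.06 to 1.36. Cdk1 to Ccnb2 stood at 1.69 and 1.06 against 0.643 to 0.909. Cdk1 to Ccnb1 stood at 5.93 and 4.60 against 2.63 to 3.94. Each of these ratios was higher in both labelled libraries than in the other 6. Plk1 and Cdk1 were above the other 6 libraries by themselves, so the ratios that hold them partly repeat that result. How many gene pairs separate the libraries in this way was not computed. Mcm6 to Mcm4, at 2.14 and 2.23 against 1.52 to 1.93, was higher as well. By contrast, the ratio of Plk1 to Mki67, at 1.10 and 1.26 against 0.947 to 1.08, separated the labelled libraries only narrowly. So did Cdt1 to Gmnn, at 0.739 and 0.722 against 0.471 to 0.711. Ccnb2 to Ccnb1, at 3.50 and 4.32 against 3.76 to 5.36, did not separate them. Nor did Rrm2 to Rrm1, at 0.943 and 0.688 against 0.704 to 1.11.

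The summed FPKM of the 15 replication genes relative to that of the 20 mitotic genes was highest in SMAD4KO_Braf library 1, at 0.932. It was 0.663 and 0.7497 in libraries 0 and 2 of that group. In BRAF it was 0.721, 0.679 and 0.678, and the labelled libraries stood at 0.764 and 0.668.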
